A study of Bos taurus with 16 samples.

Results

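The chemokine system was described here through a list of 46 chemokine ligand and receptor genes measured in endometrium, the lining of the uterus, and in leukocytes of the blood (white blood cells, WBC). A gene was measured when at least 1 probe of the array carried its name, with IL8 read as the older name of CXCL8. This held for 42 of the 46 genes, 26 ligands and 16 receptors with 86 probes, out of 26554 gene names and 46615 probes on the array. The ligands CXCL3, CX3CL1 and XCL1 and the receptor CCR10 had no probe under these names.

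The samples came from 8 multiparous Holstein dairy cows, each of which gave 1 WBC sample and 1 endometrial biopsy at 45 to 55 days post-partum. Cows 718, 833, 836 and 846 had subclinical endometritis (SCE), a uterine inflammation without clinical signs, which the study diagnosed on histology at sampling. Cows 841, 850, 877 and 883 were healthy, and none of the 8 cows had clinical disease. Each of the 4 groups (WBC_Healthy, WBC_SCE, Endo_Healthy, Endo_SCE) therefore held 4 one-colour arrays, and the same cows stood behind both tissues. Blood was drawn into PAXgene tubes, which fix RNA at sampling, and no cell type was sorted from it. No source used here gives the cycle stage of a single cow, but the SCE group held more cows in the luteal phase than the healthy group did, and the part of cycle stage in the SCE differences was not tested.

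Each tissue had a slide of its own, and the effects of tissue and slide cannot be told apart. The median spot signal above local background was 83.0 to 202.5 in WBC and 79.0 to 316 in endometrium, and 64.7% to 79.8% of spots were well above background. SCE cow 833 had both the dimmest endometrium array (79.0) and the brightest WBC array (202.5). The tissues matched their labels: 10 of 10 T cell markers and 8 of 9 neutrophil markers were higher in WBC, and 9 of 9 stroma markers and 4 of 4 uterus markers were higher in endometrium. In bulk samples, fewer cells of a type and less RNA per cell cannot be told apart.

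Chemokines are small secreted proteins that bind G protein-coupled receptors on leukocytes and direct where these cells move. They are grouped by the spacing of their first cysteines into CC, CXC, XC and CX3C families, and many ligands share a receptor. In the uterus after calving, CXC chemokines such as CXCL8 are known as attractants of neutrophils, which carry CXCR1 and CXCR2, while CC chemokines mainly attract monocytes, lymphocytes and eosinophils.

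The probes are 60 bases long. The sequences of 6 of them are shown because the tissue contrast and the neutrophil pathway turn on them, as the scanner files give them. The first pair, named CXCR2 and CXCR1 by the array, overlaps without gaps over 38 bases, and the capitals mark the 9 bases that differ there. The third probe was named CXCR2 by the array although its accession is now CXCR1 in RefSeq. No base is marked in the other 4 probes.
CXCR2: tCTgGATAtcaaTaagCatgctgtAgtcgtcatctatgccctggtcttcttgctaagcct
CXCR1: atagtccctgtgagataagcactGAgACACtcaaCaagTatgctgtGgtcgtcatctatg
CXCR2 by the array, CXCR1 by accession: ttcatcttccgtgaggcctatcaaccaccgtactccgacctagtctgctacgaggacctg
CXCL8: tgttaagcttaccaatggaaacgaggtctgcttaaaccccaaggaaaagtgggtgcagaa
CXCL12: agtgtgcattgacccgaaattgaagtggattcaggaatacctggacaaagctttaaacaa
CCR3: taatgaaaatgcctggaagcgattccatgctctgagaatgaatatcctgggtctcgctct

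The first comparison asked how ligands and receptors are divided between tissue and blood. Ligands were split between endometrium and WBC, whereas every receptor that differed was higher in WBC. Values are log2 signals after quantile normalization, averaged over the probes of a gene. Differences were tested with limma's TREAT, which asks for more than a 1.2-fold change, with Benjamini-Hochberg adjustment over every gene name. Of 26 ligands, 12 were higher in endometrium, 4 were higher in WBC and 10 did not pass at an adjusted p of 0.05. Of 16 receptors, none was higher in endometrium, 14 were higher in WBC and 2 did not pass (CCR8 and XCR1). Over all gene names tested, 22.2% were called higher in endometrium and 30.4% higher in WBC. The median difference, endometrium minus WBC, was 0.45 for ligands and -2.60 for receptors, beside -0.15 over all gene names. All 12 ligands called in endometrium were higher there in 8 of 8 cows, and 13 of the 14 receptors called in WBC were higher there in 8 of 8 cows, CXCR4 being the exception with 7.

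**Figure D1:**
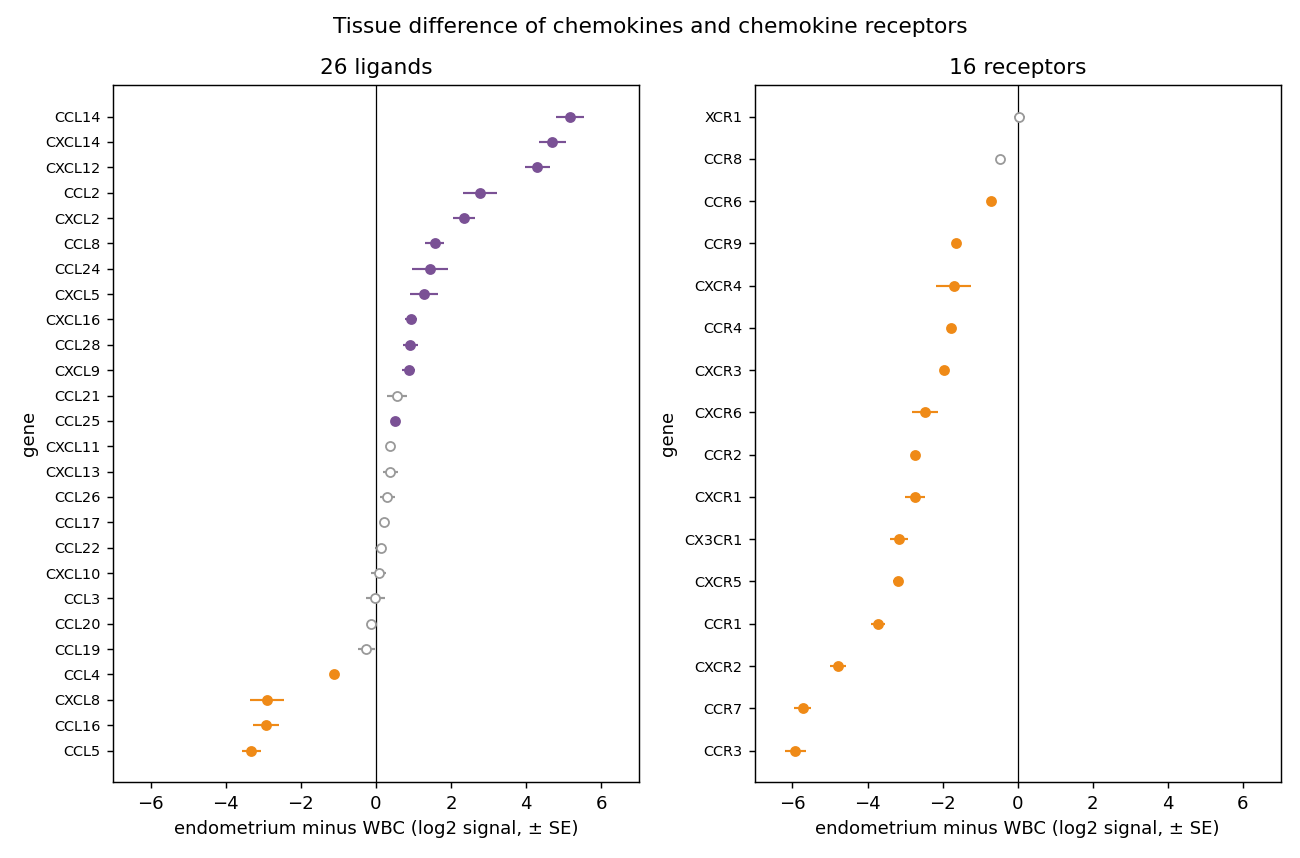
Tissue difference of 26 ligands (left) and 16 receptors (right), endometrium minus WBC on the log2 scale with its standard error. Filled points passed adjusted TREAT (purple, higher in endometrium; orange, higher in WBC) and open points did not; no receptor lies to the right with a call, and 12 ligands do.

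CCL14, a chemokine found at high levels in plasma that binds CCR1, had the largest difference among the ligands. Its log2 signal in endometrium was 9.64, 10.14, 9.56 and 10.20 in healthy animals 841, 850, 877 and 883 and 10.47, 13.41, 10.66 and 9.92 in SCE animals 718, 833, 836 and 846. In WBC it was not well above background on any array, with 5.07 to 5.71. The tissues did not overlap, and CCL14 was at least 34.7-fold higher in endometrium (difference 5.17, SE 0.37, adjusted p = 8.73e-09).

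CXCL14, a chemokine of epithelia that attracts monocytes and dendritic cell precursors, followed. It read 11.52, 10.80, 11.28 and 9.02 in the endometrium of the healthy cows and 9.96, 8.02, 10.58 and 9.53 in that of the SCE cows, in the same order of cows. WBC values of 5.07 to 5.86 were not well above background on any array. CXCL14 was thus at least 25.2-fold higher in endometrium (difference 4.70, SE 0.36, adjusted p = 2.54e-08).

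CXCL12 is the stromal ligand of CXCR4 that retains leukocytes and progenitor cells in tissue. Endometrium values were 10.90, 12.06, 11.37 and 9.22 in healthy animals and 10.83, 11.35, 9.90 and 9.76 in SCE cows. WBC values were 6.76, 6.38, 7.01 and 6.16 in healthy animals and 6.16, 6.33, 6.11 and 6.15 in SCE cows. No WBC array reached the lowest endometrium array, and the mean difference was 4.29 (SE 0.34, 19.6-fold, adjusted p = 2.95e-08). All 4 CXCL12 probes were higher in endometrium. Those measured in both tissues differed by 1.23, 4.45 (the probe printed above) and 5.52, and the other, not well above background on any array of WBC, was at least 62.6-fold higher.

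The remaining ligands called in endometrium differed by 0.51 to 2.77. CCL2, which recruits monocytes through CCR2, was at background on all 8 WBC arrays and was at least 6.82-fold higher in endometrium (SE 0.45 on the log2 scale). CCL8, another CCR2 ligand, was 2.96-fold higher, but its 2 probes differed by 2.57 and 0.57, and with the brighter one alone the call was lost (adjusted p = 0.11). CXCL16, a membrane-bound ligand of CXCR6, was 1.90-fold higher. CCL24, CXCL5, CCL28, CXCL9 and CCL25 passed with adjusted TREAT p from 0.00411 (CCL28) to 0.0304 (CCL24). CCL25, the CCR9 ligand known from thymus and gut, lost its call with the cow as a block (difference 0.51, adjusted p = 0.058), with scaling to the 75th percentile (0.24) and in 4 of the 8 fits that left out 1 cow (0.058 to 0.091). Its 2 probes were called in opposite directions, 1.56 higher in endometrium (SE 0.12) and 0.53 higher in WBC (SE 0.11, adjusted p = 0.031). CCL24, an eosinophil attractant, lost it in 5 of the 8 fits that left out 1 cow, with adjusted TREAT p of 0.051 to 0.063, and with normexp background correction (0.061). CXCL5 lost it without healthy cow 841 or SCE cow 718 (both 0.060) and with normexp (0.082).

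A smaller set of ligands had more signal in WBC. CCL5, made by T cells, natural killer cells and platelets, read 12.72, 13.32, 12.18 and 12.07 in WBC of healthy cows and 13.40, 12.09, 12.18 and 12.58 in WBC of SCE cows. The endometrium range was 8.65 to 10.14, with no overlap, and the difference was 9.96-fold (SE 0.26 on the log2 scale, adjusted p = 3.38e-08). CCL16, a ligand of CCR1, read 11.83, 11.07, 10.75 and 10.98 in healthy and 11.86, 11.09, 11.20 and 12.15 in SCE WBC. Its endometrium values ran from 7.31 to 10.43, the highest being that of SCE cow 833, and the difference was 7.57-fold (SE 0.35, adjusted p = 4.68e-06).

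CXCL8, the main neutrophil attractant, also had more signal in blood than in the biopsies. WBC read 9.84, 8.91, 8.27 and 9.51 in healthy animals and 9.72, 11.81, 9.80 and 10.03 in SCE cows. Endometrium read 6.52, 6.41, 6.57 and 6.05 in the healthy and 9.06, 8.03, 6.04 and 6.0 in SCE cows. Only the endometrium of SCE cow 718 reached the WBC range, and WBC was 7.47-fold higher (SE 0.44, adjusted p = 5.36e-05). The 3 CXCL8 probes differed by 1.40 (adjusted p = 0.0814), 3.51 and 3.79 in favour of WBC. CCL4, a chemokine of activated leukocytes, was 2.18-fold higher in WBC.

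The other 10 ligands did not pass. CCL3, CCL19 and CXCL10 were well above background on every array of both tissues as genes and differed by -0.02, -0.26 and 0.08. The probes of CCL3 went against each other: 1 was higher in WBC by 1.46, 1 was higher in endometrium by 1.59 and 1 was at background everywhere. CCL17, CCL20, CCL21, CCL22, CCL26, CXCL11 and CXCL13 were well above background on only 1 to 7 of the 16 arrays.

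The receptors showed the opposite picture. CCR3, the eotaxin receptor of eosinophils and basophils, was not well above background on any endometrium array (5.52 to 5.90). In WBC it read 13.27, 10.97, 10.76 and 11.34 in healthy animals and 11.46, 11.50, 11.96 and 11.50 in SCE cows, so healthy cow 841 stood apart. CCR3 was at least 60.5-fold higher in WBC (difference -5.92, SE 0.27, adjusted p = 4.67e-11). Of 4 measured eosinophil and basophil markers, none was called higher in WBC and GATA2 was called higher in endometrium.

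CCR7, which guides lymphocytes and dendritic cells to lymph nodes, read 12.33, 12.09, 12.78 and 12.20 in WBC of healthy cows and 12.37, 11.84, 12.18 and 12.34 in that of SCE cows. In endometrium it ranged from 5.87 to 7.85, the highest value coming from SCE cow 718. The tissues lay far apart, with a difference of -5.72 (SE 0.22, 52.9-fold, adjusted p = 6.38e-12).

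CCR1, CXCR5 and CX3CR1, receptors of monocytes and neutrophils, of B cells and of patrolling monocytes and cytotoxic cells, were 13.2-fold, 9.17-fold and 8.94-fold higher in WBC. CCR2 (at least 6.6-fold) and CXCR3 (at least 3.91-fold), receptors of monocytes and of activated T cells, were not well above background on any endometrium array. CXCR6, CCR4 and CCR9 were 5.50-fold, 3.40-fold and 3.12-fold higher in WBC. CCR6 passed the test with a difference of -0.70, but none of the 16 arrays had it well above background, so no fold is given.

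CXCR4, the receptor of CXCL12, was well above background on every array and had the widest spread in endometrium among the receptors. Its endometrium values ran from 6.88 in SCE cow 833 to 10.66 in SCE cow 718, and its WBC values from 8.94 to 11.06. The difference was -1.71 (SE 0.46, adjusted p = 0.00857, two-sided exact sign-flip p over 8 cows = 0.016). The call was lost when each tissue was normalized separately (difference -0.80, adjusted p = 0.27). For every other called member, ligand or receptor, all 8 cows differed in the same direction and this exact p was 0.0078, the smallest that 8 pairs allow.

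When the tissues were compared within healthy cows and within SCE cows separately, the direction held. In healthy cows 9 ligands were higher in endometrium, and in SCE cows 9 were, 7 of them shared. The 4 ligands higher in WBC were called in both. For the receptors, 14 were higher in WBC in healthy cows and 13 of these also in SCE cows. The share of all gene names called within each group was not counted, so these counts cannot be set beside the whole array.

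Setting each ligand beside its receptor, 24 of 28 listed pairs had both genes measured. In 10 pairs the ligand was higher in endometrium and the receptor in WBC. These were CXCL2 and CXCL5 with CXCR2, CXCL12 with CXCR4, CXCL9 with CXCR3, CXCL16 with CXCR6, CCL2 and CCL8 with CCR2, CCL14 with CCR1, CCL24 with CCR3 and CCL25 with CCR9. In 4 pairs both were higher in WBC (CXCL8 with CXCR1 and CXCR2, and CCL5 and CCL16 with CCR1). In the other 10 the receptor was higher in WBC and the ligand was not called. No pair had its receptor higher in endometrium. The pairs share genes and are listed as a description. They follow the array names, under which CXCL3 counted as not measured. Named by RefSeq, CXCL2 lost its call (difference 0.52, adjusted p = 0.15), and a probe named CXCL2 is CXCL3 by accession, as described below. The calls of CCL8, CCL24, CCL25, CXCL5 and CXCR4 were each lost in at least 1 alternative.

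**Figure D2:**
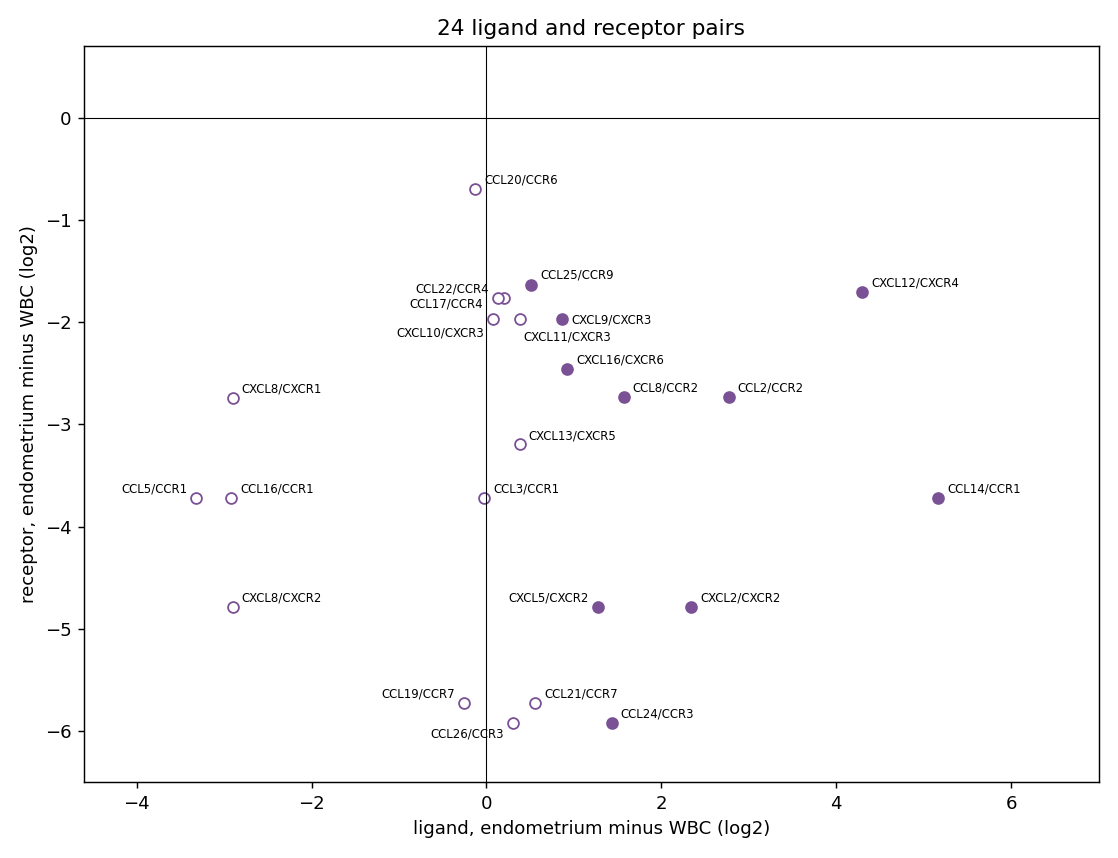
Tissue difference (endometrium minus WBC, log2) of the ligand against that of its receptor for 24 pairs, named as on the array, 1 point a pair. Filled points are the 10 pairs with the ligand called higher in endometrium and the receptor called higher in WBC; all points lie below 0 on the receptor axis.

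Most markers of blood cells moved with the receptors, but those of eosinophils and basophils did not. Called higher in WBC were 10 of 10 cytotoxic cell, 6 of 7 B and plasma cell and 6 of 6 platelet markers. So were 6 of 9 dendritic cell and 6 of 8 erythroid markers. Of 10 monocyte and macrophage markers, 6 were called higher in WBC and 2 in endometrium. Of 4 eosinophil and basophil markers, 0 were called higher in WBC and 1 in endometrium. The mean log2 signal of 9 T cell markers was 10.3 to 10.9 in WBC and 7.19 to 7.73 in endometrium, and that of 8 neutrophil markers was 10.7 to 10.9 and 6.99 to 7.90. Of the 9 measured neutrophil markers, CD177 was not well above background on any array. Stroma markers ran from 11.0 to 12.7 in endometrium and from 6.32 to 6.53 in WBC. The part of cell composition in the tissue differences was not tested.

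Several array names cover more than 1 gene copy. Of the 86 probes, 72 had an accession in the RefSeq gene table, 67 under the same symbol and 5 under another, and 14 had none there. The 5 lay under CXCL2 and CXCR2. The 4 probes named CXCL2 belong by accession to CXCL3 (1 probe), CXCL2 (1 probe) and GRO1 (2 probes), which are neighbouring CXC chemokines that bind CXCR2. They did not behave alike.

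The CXCL3 probe read 11.50, 12.68, 11.56 and 10.61 in the endometrium of healthy cows and 14.38, 12.23, 10.74 and 10.64 in that of SCE cows. On no WBC array was it well above background (5.10 to 5.83), so that it was at least 80.7-fold higher in endometrium (difference 6.38, SE 0.44, adjusted p = 4.92e-09). This exceeded the difference of every member averaged under its array name. The CXCL2 probe matches the CXCL3 probe at 45 of 55 overlapping bases. This CXCL2 probe read 5.67 to 7.50 in endometrium and 5.39 to 6.79 in WBC, a difference of 0.46 (SE 0.23, adjusted p = 0.31). It was well above background on 2 endometrium arrays and 1 WBC array. One GRO1 probe was higher in endometrium by 1.96 (SE 0.39, at least 3.88-fold), and the other, dim on all but 1 array, differed by 0.57. Named by RefSeq, CXCL2 itself lost its tissue call (difference 0.52, adjusted p = 0.15), while the CXCL3 probe was called by itself.

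Under the name CXCR2, both probes whose accession is now CXCR1 differed by -7.26 and -4.40. The first read 12.33, 13.19, 13.79 and 13.69 in WBC of healthy cows and 13.51, 13.15, 12.80 and 12.91 in WBC of SCE cows. The second, printed above, read 8.70, 9.66, 10.86 and 10.54 and then 10.44, 9.94, 9.04 and 9.64. The probe with the CXCR2 accession read 8.37, 8.74, 9.37 and 9.33 and then 9.24, 8.79, 8.33 and 8.97 (difference -2.70, SE 0.15). The probe the array named CXCR1 has an accession that is not in the table used, and read 7.16, 8.12, 9.40 and 9.10 and then 8.78, 8.46, 7.59 and 7.94. All 4 were lowest in WBC of healthy cow 841 except the CXCR2 probe, whose lowest value was that of SCE cow 836.

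In endometrium, these 4 receptor probes were at or near background. The CXCR1-named probe was well above background on 0 of 8 arrays, both probes now assigned to CXCR1 on 1 and 0, and the CXCR2 probe on 2. Averaged under their array names, CXCR1 was at least 6.68-fold and CXCR2 27.6-fold higher in WBC. One more probe, named XCL2 by the array, is XCL1 by accession, a lymphocyte chemokine. It was higher in WBC by 0.86 (SE 0.15, adjusted p = 0.00184).

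**Figure D3:**
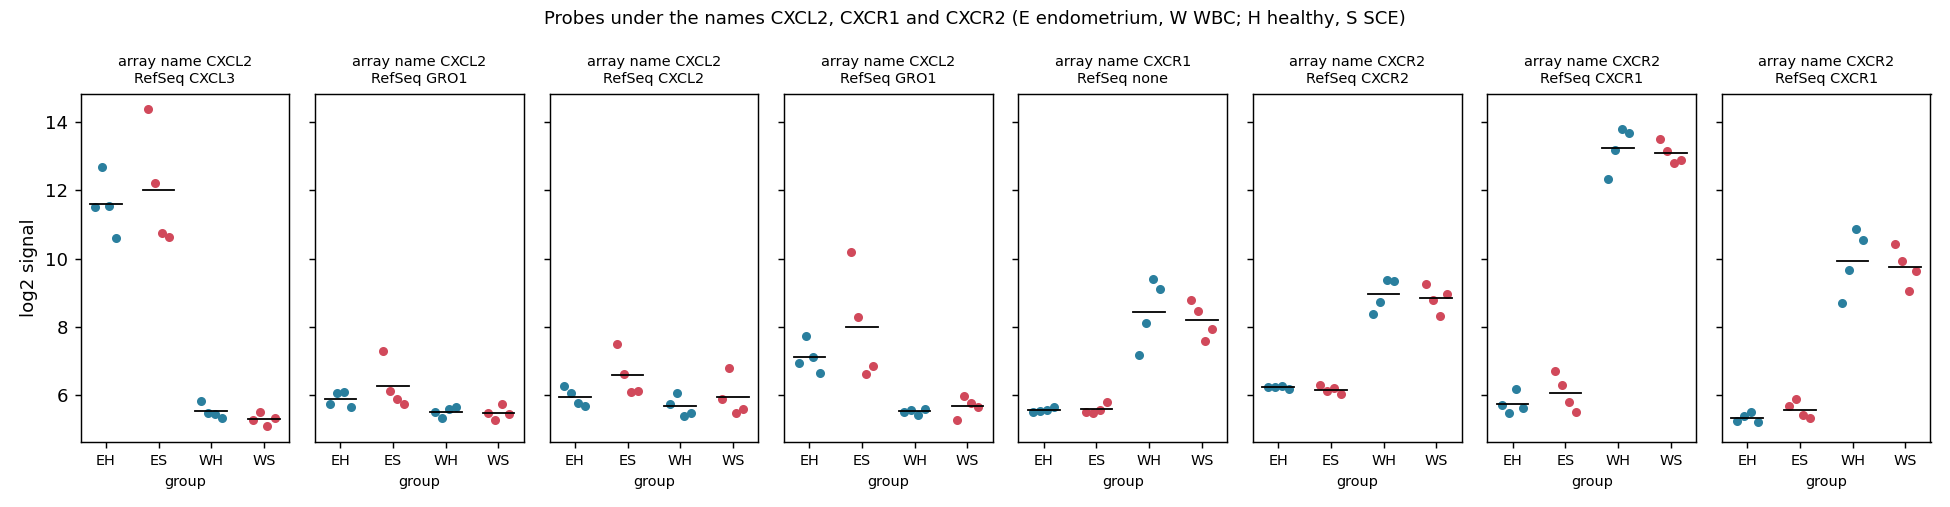
Log2 signal of the 8 probes named CXCL2, CXCR1 or CXCR2 by the array, with the symbol RefSeq gives their accession, in endometrium (E) and WBC (W) of healthy (H, blue) and SCE (S, red) cows. Points are arrays and bars are means of 4; the CXCL3 probe lies between 10.61 and 14.38 in endometrium and below 6 in WBC.

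The second comparison asked which chemokine genes differ in the endometrium of cows with SCE. No member passed adjusted TREAT, none passed it unadjusted at 0.05, and over all gene names 0% were called after adjustment. Without adjustment, 0.222% of all gene names were higher and 0.158% lower in SCE. Of the 42 members, 29 had a higher and 13 a lower mean in SCE, with a median difference of 0.14 beside 0.00 over all gene names, of which 50.7% were higher. Ligand differences ran from -1.13 (CXCL14) to 1.23 (CCL14), and receptor differences from -0.53 (CX3CR1) to 0.57 (CCR7). With 4 cows against 4, the smallest two-sided exact permutation p is 0.029.

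Only CCR4, a receptor of helper and regulatory T cells, separated the groups without overlap. It read 5.74, 5.66, 5.63 and 5.78 in healthy animals and 6.21, 5.79, 5.87 and 5.82 in SCE cows (difference 0.22, SE 0.12, unadjusted TREAT p = 0.63, exact permutation p = 0.029). It was well above background on 1 of these 8 arrays, an SCE one. Among all gene names, 0.721% did not overlap with SCE higher and 0.774% with SCE lower, against 1 and 0 of 42 members.

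CCL19, the CCR7 ligand that draws lymphocytes and dendritic cells, had the smallest unadjusted TREAT p in endometrium. Its mean over 2 probes was 6.53, 6.28, 6.45 and 6.34 in healthy animals and 7.87, 8.51, 7.11 and 6.33 in SCE cows. Cows 718, 833 and 836 were above every healthy cow and cow 846 was within their range. The difference of 1.05 (SE 0.41, 2.07-fold) had an unadjusted TREAT p of 0.052 and an exact permutation p of 0.11. Without cow 833 the difference was 0.70, and without cow 846 it was 1.42 and passed unadjusted TREAT. Its second probe was well above background on 1 array of 16, in WBC, and the first alone differed by 2.00 (SE 0.72, unadjusted TREAT p = 0.027, adjusted p = 1, exact permutation p = 0.086). That probe read 7.26, 6.76, 7.24 and 6.90 in healthy animals and 9.63, 10.92, 8.58 and 7.0 in SCE cows. CCR7 itself was highest in cow 718 (7.85) and read 5.87, 6.91 and 6.67 in cows 833, 836 and 846, against 5.87 to 6.62 in healthy cows.

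CCL14 and CXCL14, the ligands with the largest tissue differences, had the largest SCE differences in opposite directions. CCL14 was higher by 1.23 (SE 0.69, unadjusted TREAT p = 0.13), and its value of 13.41 in SCE cow 833 stood above the next highest, 10.66 in cow 836 (exact permutation p = 0.086). CXCL14 was lower by 1.13 (SE 0.67, unadjusted TREAT p = 0.15, exact permutation p = 0.20), with 8.02 in cow 833 below every other endometrium. Without cow 833 the differences were 0.46 for CCL14 and -0.63 for CXCL14. Without healthy cow 883, CXCL14 differed by -1.68 and passed unadjusted TREAT. Neither gene separated the groups. In cow 833 the mean signal of 9 endothelium markers was the highest of the 8 endometria (11.6, against 9.45 to 10.4 in the others), and that of 9 stroma markers the lowest (11.0, against 11.5 to 12.7). The part of tissue composition in these values was not tested.

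The CXCR2 ligands varied from cow to cow. CXCL5, a neutrophil attractant made by epithelium, read 7.31, 6.75, 6.4 and 5.93 in healthy animals and 8.16, 8.15, 7.02 and 6.79 in SCE cows. The difference was 0.94 (SE 0.41, unadjusted TREAT p = 0.077, exact permutation p = 0.11). The endometrium values of CXCL8 given above split the SCE cows: cows 718 and 833 were above every healthy cow, and cows 836 and 846 below every one. Its difference of 0.89 had an SE of 0.66 (exact permutation p = 0.43) and was 0.30 without cow 718. In cow 718 the CXCL3 probe (14.38) and the brighter GRO1 probe (10.21) were also highest of all 8 endometria.

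Neutrophil markers were higher in these same animals. Their mean signal was 7.57 in cow 718 and 7.90 in cow 833, against 6.99 to 7.28 in healthy cows and 7.11 and 7.18 in SCE cows 836 and 846. S100A8, a granulocyte protein gene, did not overlap between the groups (6.31 to 7.23 in healthy and 7.36 to 10.45 in SCE cows). B and plasma cell markers also read 9.08 and 8.67 in cows 718 and 833, against 7.57 to 7.98 in healthy cows, and 8.25 in SCE cow 836 was also above every healthy cow. Averaged under its array name, CXCR2 read 6.22 and 6.09 in cows 718 and 833, above the healthy range of 5.66 to 5.99. CXCR1 read 5.52 and 5.47 there, and both genes were near background. Both probes named CXCR2 whose accession is CXCR1 were above every healthy cow in cows 718 and 833. The probe with the CXCR2 accession was only just above every healthy cow in cow 718 and below every one in cow 833. How far leukocyte content accounts for the ligand values was not tested.

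**Figure D4:**
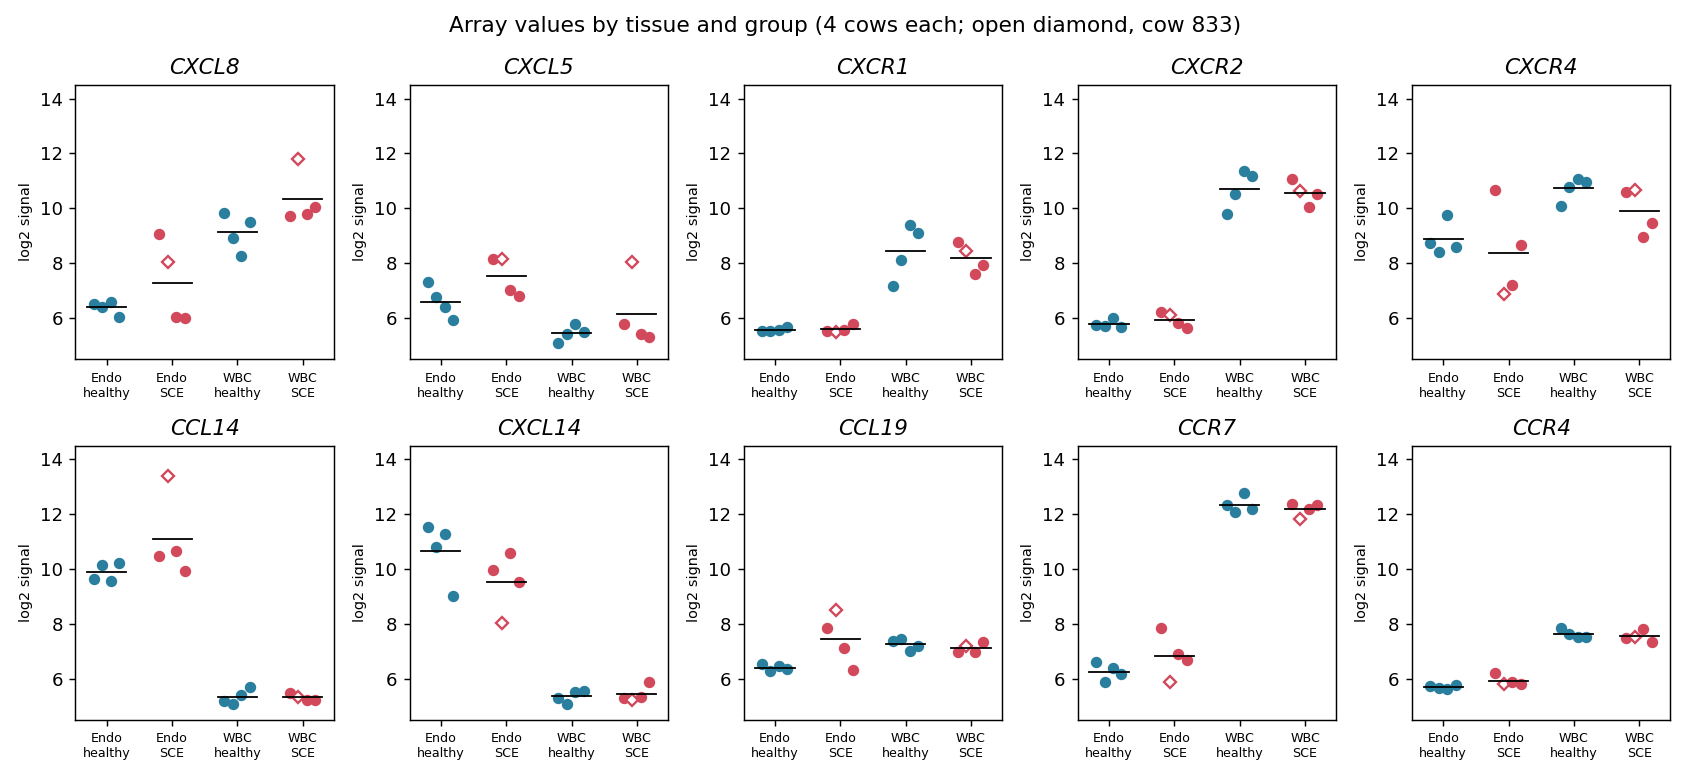
Log2 signal of 10 members in every array, by tissue and group, with 4 cows a group (blue healthy, red SCE) and bars for means; SCE cow 833 is an open diamond. The SCE endometria split for CXCL8 (9.06 and 8.03 against 6.04 and 6.0), and cow 833 stands highest for CXCL8 and CXCL5 in WBC.

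Other members were spread between cows of the same group. The pooled within-group SD in endometrium had a median of 0.535 over the 42 members, beside 0.265 over all gene names, and it exceeded 0.5 for 23 members. CCL24 (1.47), CCL2 (1.37) and CXCR4 (1.29) had the highest. CCL24 read 10.45 in cow 833 and at most 7.85 in the other 7 cows, and CCL2 was highest in healthy cow 850 (11.01). CXCL10, an interferon-induced CXCR3 ligand, was lower by 0.71 (SE 0.34, exact permutation p = 0.20), with 6.73 and 6.83 in cows 833 and 836 against at least 7.95 in the other cows.

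Cow by cow, the endometrium of SCE cow 718 had 24 of 42 members above all 4 healthy cows and 1 below, where 13.9% of all gene names were above and 19.2% below. In cow 833, 19 members were above and 12 below, where 32.5% and 30.8% of all gene names were. In cow 836 the counts were 14 and 14 (20.3% and 23.2% of all gene names), and in cow 846 they were 9 and 4 (15.4% and 17%). Members above the healthy range in 3 of the 4 SCE cows were CCL3, CCL14, CCL19, CCL20, CCL28, CCR7 and CXCR5. As a mean of its probes, CCR4 was the only one above it in all 4.

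The third comparison asked the same of circulating WBC. CXCL8 was the only member past unadjusted TREAT, and none passed after adjustment, as for 0% of all gene names. Without adjustment, 0.0565% of all gene names were higher and 0.0301% lower in SCE. Of the 42 members, 20 had a higher and 22 a lower mean in SCE, with a median difference of -0.01, and -0.01 also over all gene names. Differences ran from -0.81 (CXCR4) to 1.21 (CXCL8). No member separated the groups, beside 0.565% of gene names that did with SCE higher and 0.744% with SCE lower.

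CXCL8 was 2.32-fold higher in WBC of SCE cows (difference 1.21, SE 0.49, unadjusted TREAT p = 0.049, adjusted p = 1, exact permutation p = 0.086). SCE cow 833 stood highest at 11.81, and the other 3 SCE cows (9.72 to 10.03) overlapped with the upper healthy values (9.51 and 9.84). Without cow 833 the difference was 0.72 (SE 0.32) and no longer passed unadjusted TREAT. The call was also lost without SCE cow 846 and without healthy cows 850, 877 or 883, with differences of 0.92 to 1.34, and it held without the other 3. All 3 probes were higher in SCE, by 1.1 to 1.31. In the first of them cow 833 read 11.63 and the other 7 cows 7.12 to 8.02.

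CXCL5 showed cow 833 alone. It was not well above background on 7 of the 8 WBC arrays (5.09 to 5.78) and read 8.04 in cow 833, and the probe with the CXCL2 accession was likewise highest there (6.79). Neutrophil markers did not set that cow apart in blood (10.8, within the 10.7 to 10.9 of the others), and its array was the brightest of the WBC slide. One of the 9 neutrophil markers, FCGR3A, passed unadjusted TREAT with SCE higher. As a list they were mixed in WBC, with a higher mean in SCE for 5 of the 9 and a median difference of 0.08. The part of these markers in the CXCL8 value was not tested. Platelet factor 4 (PF4), a platelet chemokine, was also highest in WBC of cow 833 (15.74, against 14.14 to 15.09). The mean signal of 6 platelet markers was not highest in that cow (8.24, within the 8.13 to 8.65 of the others).

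CXCR4 had the most negative difference in WBC (-0.81, SE 0.39, unadjusted TREAT p = 0.11, exact permutation p = 0.17). SCE cows 836 and 846 read 8.94 and 9.48, below all 4 healthy cows, whereas cows 718 and 833 read 10.59 and 10.65, within the healthy values. The difference was -1.05 without cow 833 and -1.03 without cow 718, both past unadjusted TREAT, but -0.48 without cow 836, which did not pass. In endometrium it differed by -0.52 (SE 0.78). That value was -1.29 without cow 718, past unadjusted TREAT, and -0.03, -0.14 and -0.22 without cows 833, 836 and 877. For the receptors of CXCL8, CXCR1 differed by -0.26 (SE 0.47) and CXCR2 by -0.15 (SE 0.34), with overlapping groups and the lowest values in healthy cow 841.

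With the SCE differences of both tissues side by side, CXCL8, CXCL5 and CCL16 had higher means in SCE in both tissues (0.89 and 1.21, 0.94 and 0.70, 0.63 and 0.42 in endometrium and WBC), and CXCR4 and CXCL12 lower means in both (-0.52 and -0.81, -0.43 and -0.39). Single cows carried several of these values. Without cow 833, CXCL5 in WBC differed by 0.06, CCL16 in endometrium by 0.07 and CXCR4 in endometrium by -0.03. CXCL8 in endometrium differed by 0.30 without cow 718, and CXCL12 in endometrium by -0.04 without healthy cow 850. Whether an SCE difference was unequal in the tissues was tested for each member, and none passed adjusted TREAT (0% over all gene names). Unadjusted, CCL19 (difference of differences 1.18, SE 0.45) and CXCL10 (-0.99, SE 0.40) passed, both with an adjusted p of 1. The share of all gene names past this unadjusted test was not counted, so these passes cannot be set beside the whole array.

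**Figure D5:**
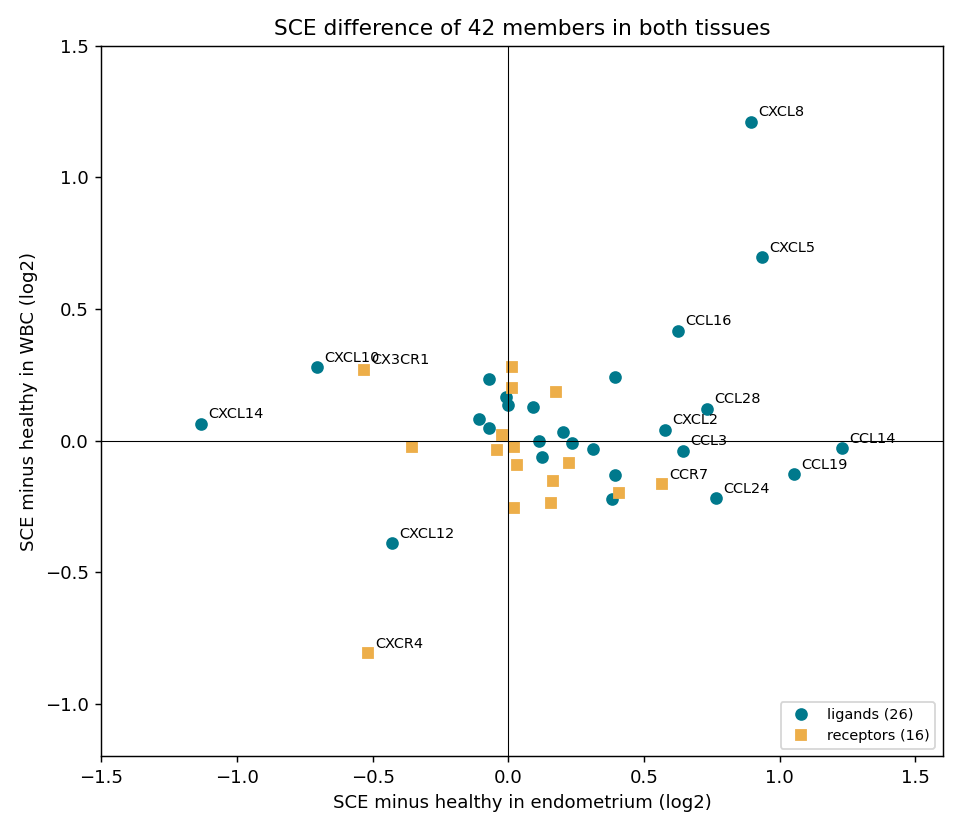
SCE minus healthy on the log2 scale in endometrium (x axis) and WBC (y axis) for 26 ligands (circles) and 16 receptors (squares), means of 4 cows a group. CXCL8 and CXCL5 lie at the upper right and CXCR4 at the lower left; no point was called after adjustment.

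The rest of the pathway was read from fixed lists. Of 28 measured genes of chemokine signalling, 25 were higher in WBC, RGS1 (a brake on receptor signalling) was called higher in endometrium by 1.40 (SE 0.52), and GNAI3 and GRK5 did not pass. The largest difference was that of CORO1A, an actin regulator of leukocytes (-6.32, SE 0.23). Among 5 other ligands, PF4 (-8.0, SE 0.22), PPBP and XCL2 were higher in WBC and CCL11, an eosinophil attractant, was higher in endometrium by 0.74 (SE 0.22). Among scavenger and related receptors, CXCR7, the CXCL12 scavenger now called ACKR3, was higher in endometrium by 3.32 (SE 0.17), as was CCBP2 by 0.63, and CCRL2 was higher in WBC. Between SCE and healthy cows, none of these genes passed adjusted TREAT and 0 passed it unadjusted in either tissue. CXCL17, a mucosal chemokine, had the largest SCE difference among them (1.13, SE 0.57), with 9.62 in cow 833 and 6.44 to 8.29 in the other 7 endometria.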

How the data were processed

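The authors hybridized Cy3-labelled RNA to a custom bovine array, 1 array per sample, and extracted spot intensity with Agilent Feature Extraction 10.10.1.1, per the file headers. They also deposited a table of quantile-normalized median intensity, which differed from the same step repeated here by a median of 0.0415% and at most 2.48%. Here the median signal of each spot, without background correction, was put on the log2 scale after outlier and control spots were left out, and quantile-normalized over the 16 arrays. Probes of 1 array gene name were then averaged. The authors' table was put on the log2 scale only for an alternative.

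Tests used limma 3.58.1 in R 4.3.3 (lmFit, then TREAT at 1.2-fold), with Benjamini-Hochberg adjustment over all gene names and a threshold of 0.05. The tissue comparison and the difference of SCE effects used all 16 arrays, and each SCE comparison used the 8 arrays of its tissue. Single members also had two-sided exact permutation tests over cows, whose p-values are not adjusted over the 42 members. A gene not well above background on any array of a tissue has only a bound there, and the fold is given as "at least". Levels of different genes were not set against each other. Array number limits the precision.

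The same animals gave both tissues, so samples were paired by cow. The reported TREAT tests of tissue and of the difference of SCE effects did not use this pairing. The exact sign-flip test used it, as did the alternative with the cow as a block. The correlations of a cow's deviations in both tissues were 0.07, 0.10, 0.07 and 0.09 for healthy animals 841, 850, 877 and 883 and -0.05, -0.22, 0.07 and -0.02 for SCE animals 718, 833, 836 and 846. Gene names were those of the array, and probe accessions were looked up in the RefSeq gene table. The genome build of the probe coordinates is not given in the sources used here, and none is printed.

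The members and lists were chosen with earlier results of these data known. By rule, array values were given for CXCL8, CXCL5, CXCR1 and CXCR2, for members past unadjusted TREAT or without overlap in an SCE comparison, and for the 3 ligands and 3 receptors with the largest called tissue difference in each direction. Array values of CCL19, CXCL2 and its probes, and the single values of CCL14, CXCL14, CCL24, CXCL10, CCR7 and CXCR4 given for SCE, were chosen after their values were seen. Alternatives covered the normalization, background correction, probe summary and naming, dim-probe filter, TREAT threshold, prior, blocks and leaving out each cow. The scripts were tested on simulated data.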

Additional observations from a re-analysis of the deposited data

Results flagged for a closer look

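In 12 of 168 groups of 4 arrays (7.14%, beside 7.44% over all gene names), the highest or lowest array lay apart from the other 3, with a gap whose share of the group's range passed Dixon's critical value. Chance alone gives about 1 in 20. Of the 12, 6 were arrays of SCE cow 833. In its WBC these were CXCL2 (ratio of gap to range 0.898), CXCL5 (0.830) and CXCL8 (0.851) as the highest and CCR2 (0.914) as the lowest. In its endometrium CCL3 (0.922) and CCR9 (0.894) were highest. The share of flags on this cow over all gene names was not counted, so the 6 cannot be read as particular to the members. Over all gene names, cow 833 lay outside the range of the 4 healthy cows for 57.8% in WBC and 63.3% in endometrium. Both were the highest shares of any SCE cow. The endometrium array of this cow was the dimmest and its WBC array the brightest, and the part of signal strength was not tested.

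The other 6 were spread over other cows. In WBC of SCE cows, CCL28 was lowest in cow 718 (0.957), CCR3 highest in cow 836 (0.923) and CXCL14 highest in cow 846 (0.832). In WBC of healthy cows, CCL17 was highest in cow 877 (0.908) and CXCL10 in cow 850 (0.859). XCR1 was highest in the endometrium of healthy cow 850 (0.963). CCL28, CXCL14 and CCL17 were not well above background on any array of these groups, and CXCL2, CXCL5, CCR9 and XCR1 on only 1 of 4.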

How the results depend on the processing

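No alternative called a member for SCE or for a difference of SCE effects after adjustment, and no gene averaged over its probes reversed a tissue call, though 1 of the 2 CCL25 probes was called higher in WBC. Normalizing within each tissue moved the median tissue difference to 0.88 for ligands and -1.87 for receptors and ended the tissue calls of CXCR4 (adjusted p = 0.27), CCR6 (0.20) and CCL4 (0.083). It called 16 ligands higher in endometrium, 3 in WBC and 12 receptors in WBC, and scaling to the 75th percentile of the processed signal gave 0.77 and -4.12. The dim-probe filter gave 0.87 for ligands, and normexp gave -2.18 for receptors. Members past unadjusted TREAT in endometrium, 0 as reported, numbered 1 with normalization within tissues, the authors' intensities, a TREAT threshold of 1.1 and a trended, robust prior. They numbered 2 with the 75th percentile, each probe on its own, the brightest probe, the slide row as block and all 16 arrays in 1 fit, and 3 at a threshold of 1. In WBC the count of 1 became 0 with normalization within tissues, normexp and all 16 arrays in 1 fit. Leaving out 1 cow gave 0 to 3 in endometrium and 0 to 2 in WBC, 10 to 12 ligands called in endometrium, 4 in WBC and 14 to 15 receptors in WBC. With each probe on its own, 13 ligands were called in endometrium and 6 in WBC. The causes were not tested.

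With the cow as replicate block, 11 ligands were called higher in endometrium, 4 ligands and 14 receptors in WBC, and 0 members for a difference of SCE effects. Medians were 0.45 and -2.60, and CCL25 was the call lost. Dim probes limit what can be read for CCR6, CCR8 and most genes at background in 1 tissue, and 4 cows a group limit the SCE comparisons.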
